A study of Mus musculus with 9 samples.

Results

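One floxed allele of Dot1l was compared with none in midbrain dopamine (DA) neurons of mouse embryos. The comparison was taken from the sample titles, with the Dot1l-Het libraries set against the Dot1l-wt libraries, and held 6 of the 8 libraries whose counts were used, 3 per genotype. Each gene with enough reads was followed across these 6 libraries, which made 17988 genes tested. The control neurons were Dot1l +/+, called Dot1l(+/+) here, and the heterozygous neurons were Dot1l fl/+, called Dot1l(fl/+). Every embryo also carried Pitx3-Cre/+ and the Rosa-lox-stop-lox-Yfp reporter, so the controls had Cre too and the Dot1l allele was what the labels gave as different. All were on strain C57/Bl6, at E15.75, and their neurons were sorted for yellow fluorescent protein. Neurons with both alleles floxed, Dot1l(fl/fl), were used in 2 libraries for the spread and for values side by side, and Dot1l(fl/fl) 3 was not analysed here. Cre was driven by Pitx3, which is switched on in DA neurons that have stopped dividing, and not in their progenitors. Per the study's methods, samples were pooled before sequencing and each pregnant female gave one set of the genotypes, but no label ties a library number to a litter. Where nothing separates cultures or animals in the labels, p-values measure the spread between these libraries, which may be partly technical. The question was whether losing 1 of 2 copies of Dot1l in these neurons is enough to shift their transcripts.

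Dot1l is the enzyme that adds methyl groups to lysine 79 of histone H3 (H3K79), a residue on the face of the nucleosome core and not on a histone tail. It travels with elongating RNA polymerase II in complexes with AF9, ENL and AF10 family proteins, and the mark lies over the bodies of transcribed genes. No demethylase for H3K79 is firmly established, and in neurons that no longer divide the mark is not diluted by replication. Midbrain DA neurons make dopamine for movement and reward, and are the neurons lost in Parkinson's disease.

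The floxed segment is exon 5 of 28 of Dot1l, which Cre removes. It is shown because it is what separates the genotypes, and because it is 229 of the 6808 bases of the transcript, or 3.36%, so that a count over the whole gene is not a count of intact alleles. On GRCm38 it lies at chr10:80771138-80771366, plus strand, and is coding throughout (GENCODE M21 transcript). It follows 88 codons of the reading frame and holds 76 whole codons plus 1 base, printed as the capital at its 3′ end.
Dot1l exon 5: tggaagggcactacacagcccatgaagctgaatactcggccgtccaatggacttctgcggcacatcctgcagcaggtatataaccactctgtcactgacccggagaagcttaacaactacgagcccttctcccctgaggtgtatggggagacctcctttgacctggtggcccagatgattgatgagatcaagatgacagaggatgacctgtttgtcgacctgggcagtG
Because of that base, exon 4 joined to exon 6 leaves the frame, and 129 codons are read before a stop, against 1540 in the full transcript.

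The 6 libraries held 26296897 to 43674673 counts over genes and 17607 to 19388 genes with at least 1 count, and 1.08% to 1.36% of their counts lay on the mitochondrial chromosome. All 9 defining DA markers were present in all 6 libraries. Th, the rate-limiting enzyme of dopamine synthesis, ranged from 915 to 1047 CPM (the count divided by the scaled total of its library), Ddc, the next enzyme, from 1070 to 1236, and the DA transcription factor Lmx1b from 253 to 321. Dot1l(+/+) 2 stood apart from the other libraries on the first principal component.

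No gene passed edgeR's quasi-likelihood test at an adjusted p under 0.05 between Dot1l(fl/+) and Dot1l(+/+), which is 0% of the 17988 tested, and the smallest adjusted p was 0.94. All differences below are log2 fold changes of Dot1l(fl/+) over Dot1l(+/+), given with their SE from edgeR. In this edgeR fit no gene named had an adjusted p below 0.94. A gene whose unadjusted p was under 0.05 is called a nominal gene below. There were 903 nominal genes, with 389 (2.16%) higher and 514 (2.86%) lower in Dot1l(fl/+). The 3 libraries of one genotype all lay beyond the 3 of the other in 1000 genes that were higher (5.56%) and 1074 that were lower (5.97%). Where no gene differs, a share of about 0.05 of the genes tested is still expected to be nominal. Some genes also separate 3 libraries from 3 in that case. Nominal or not overlapping is thus a description of a gene below and not a call. These shares are the background against which the gene lists below are read. Leaving out Dot1l(+/+) 2 gave 1493 nominal genes, of which 686 were higher and 807 lower, and still 0 past edgeR's adjusted threshold. Leaving out Dot1l(+/+) 1 gave 326 nominal genes that were lower, and leaving out Dot1l(+/+) 3 gave 308. Without the library labelled Dot1l(fl/fl) 1 or 2, which enter this comparison through the estimate of spread alone, edgeR made 0 adjusted calls, with 1054 and 1071 nominal genes. Differences were small among well-measured genes. Of 8075 genes above 20 CPM, 92.3% lay within 1.2-fold of Dot1l(+/+), 6 differed by more than 1.5-fold, of which 2 did not overlap, and 1, Xist, by more than 2-fold. The 95% interval of a single gene in that class reached a median of 0.26 to either side, so a change of 1.2-fold in a single gene was mostly not detectable at this replication.

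Dot1l itself read 105, 84.6 and 94.6 CPM in the Dot1l(+/+) libraries and 75.5, 65.6 and 76.2 in the Dot1l(fl/+) libraries. The groups did not overlap, and every heterozygous library lay below every control library. The fitted difference was -0.39 ± 0.13. In Dot1l(fl/fl) the gene read 64.9 and 99.1, on either side of the heterozygous libraries, with the library labelled Dot1l(fl/fl) 2 inside the Dot1l(+/+) range. The partners and writers around Dot1l were the first list examined. Of 21 genes of the H3K79 methylation machinery, 5 were higher and 16 lower, with a median of -0.03 against -0.01 over all genes. Besides Dot1l, the nominal members that were lower were Mllt6 and Kmt2a. Mllt6, a paralog of the AF10 partner, differed by -0.31 ± 0.12, and Kmt2a, the H3K4 methyltransferase whose fusions recruit DOT1L in leukaemia, by -0.29 ± 0.13. Skp1a, a subunit of SCF ubiquitin ligases, was the nominal member that was higher, at 0.21 ± 0.10. Libraries of Mllt6, Kmt2a and Skp1a overlapped between the genotypes. The cyclin Ccnt2, part of the kinase complex that releases paused polymerase, did not overlap, with 130.1, 125 and 122 CPM against 108, 109.5 and 114, and was not nominal.

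The 12 genes higher in Dot1l(fl/+) with the smallest p are described first. They and the 12 lower genes below were picked on these same libraries. Groups that lie apart follow in part from that choice and are no further support. Tbca, a chaperone that holds beta-tubulin during folding (chr13:94788910-94842922), read 74.7, 81.9 and 64.6 CPM in Dot1l(+/+) and 112, 96.0 and 108 in Dot1l(fl/+). The lowest heterozygous library lay above the highest control library, and the difference was 0.51 ± 0.11. Chchd2, a mitochondrial intermembrane protein mutated in some familial Parkinson's disease (chr5:129881156-129887470), read 59.1, 52.9 and 50.3 against 72.3, 76.8 and 80.1, again without overlap, a difference of 0.50 ± 0.11. Prkra, an activator of the double-stranded RNA kinase PKR (chr2:76629898-76648015), read 71.2, 75.3 and 74.8 against 93.5, 93.7 and 109. Arpc3, a subunit of the actin-branching Arp2/3 complex (chr5:122391878-122414184), read 73.1, 83.9 and 83.3 against 95.8, 109 and 119.6. Both pairs of groups were apart, with differences of 0.42 ± 0.11 for Prkra and 0.43 ± 0.11 for Arpc3. Rplp0, which forms the stalk of the large ribosomal subunit, read 259, 266 and 274 against 304, 342 and 362, a difference of 0.33 ± 0.09. It was the most abundant of the 12 and did not overlap either.

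Tacr3 and Nts were also among these 12. Tacr3, the neurokinin B receptor found on part of the DA neurons (chr3:134829007-134934579), read 9.96, 11.3 and 10.2 CPM in Dot1l(+/+) and 19.6, 21.1 and 14.2 in Dot1l(fl/+). The groups did not overlap, and the difference was 0.80 ± 0.21. Nts, which encodes neurotensin, a peptide that acts on DA neurons, read 1.35, 4.70 and 1.94 against 4.2, 9.88 and 9.17. Dot1l(+/+) 2 lay above Dot1l(fl/+) 1, so Nts was the overlapping gene of the 12. Gsto2, a glutathione transferase, had no count in the 3 Dot1l(+/+) libraries and 24, 53 and 19 counts in Dot1l(fl/+). Against a floor of 3 counts over the Dot1l(+/+) group this was at least 38.8-fold higher, at levels of 1.86 CPM or less. Fuom, which interconverts forms of fucose, and Mtmr11, of the myotubularin family, differed by 1.04 ± 0.28 and 1.70 ± 0.48 at mean levels below 10 CPM. The rest were Tpt1-ps3, a processed pseudogene, and Rpl9-ps6, annotated as coding but named as a copy of a ribosomal gene. Their reads may belong to their parent genes, since the handling of reads shared between copies was not given in the sources used here.

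The 12 genes lower in Dot1l(fl/+) with the smallest p follow. Runx1t1, a corepressor known as ETO (chr4:13743436-13893649), read 105, 114 and 109 CPM in Dot1l(+/+) and 82.9, 79.5 and 78.4 in Dot1l(fl/+). The genotypes were well apart and each was tight, and the difference was -0.44 ± 0.11. Tle2, a Groucho-family corepressor, read 71.4, 61.0 and 71.6 against 55.8, 46.1 and 47.1, without overlap, a difference of -0.45 ± 0.13. L3mbtl1, a reader of methylated histones that compacts chromatin (chr2:162943472-162974522), read 8.96, 6.15 and 8.51 against 3.83, 3.62 and 2.99. It did not overlap and differed by -1.18 ± 0.30. Zdbf2, an imprinted gene, read 103, 113 and 102 against 82.5, 75.9 and 62.5, a difference of -0.52 ± 0.15 with every heterozygous library lower.

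Sox9, a transcription factor of neural progenitors, glia and cartilage (chr11:112782224-112787760), read 5.67, 12 and 6.82 CPM in Dot1l(+/+) and 4.33, 1.72 and 2.88 in Dot1l(fl/+). Col2a1, a fibrillar collagen gene that Sox9 is known to activate in cartilage (chr15:97975602-98004695), read 17.8, 13.2 and 28.2 against 9.14, 12 and 9.84. Neither gene overlapped, with differences of -1.45 ± 0.39 and -0.94 ± 0.24. The summed level of the 15 radial glia and progenitor markers, of which Sox9 is one, did overlap, at 264 to 328 CPM in Dot1l(+/+) and 276 to 311 in Dot1l(fl/+). Tmem64, a transmembrane protein (chr4:15265831-15286753), read 25, 22.8 and 24.1 against 13.9, 14.6 and 13.7. The groups were wide apart, at -0.77 ± 0.19. Plekha7, of epithelial adherens junctions, and Dgkk, a diacylglycerol kinase, differed by -0.67 ± 0.17 and -0.68 ± 0.20 without overlap. The pseudogene Tmem181b-ps differed by -0.81 ± 0.20, and the kinase gene Stk17b by -3.23 ± 0.92 from 0.618, 4.21 and 1.78 CPM to under 0.3 in each heterozygous library. Wdfy1, an endosomal protein, overlapped between the genotypes because Dot1l(+/+) 2 read 138 against 146 in Dot1l(fl/+) 1. The median exon length was 2148.5 bases for the 12 higher genes and 6354.5 for the 12 lower ones.

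**Figure D1:**
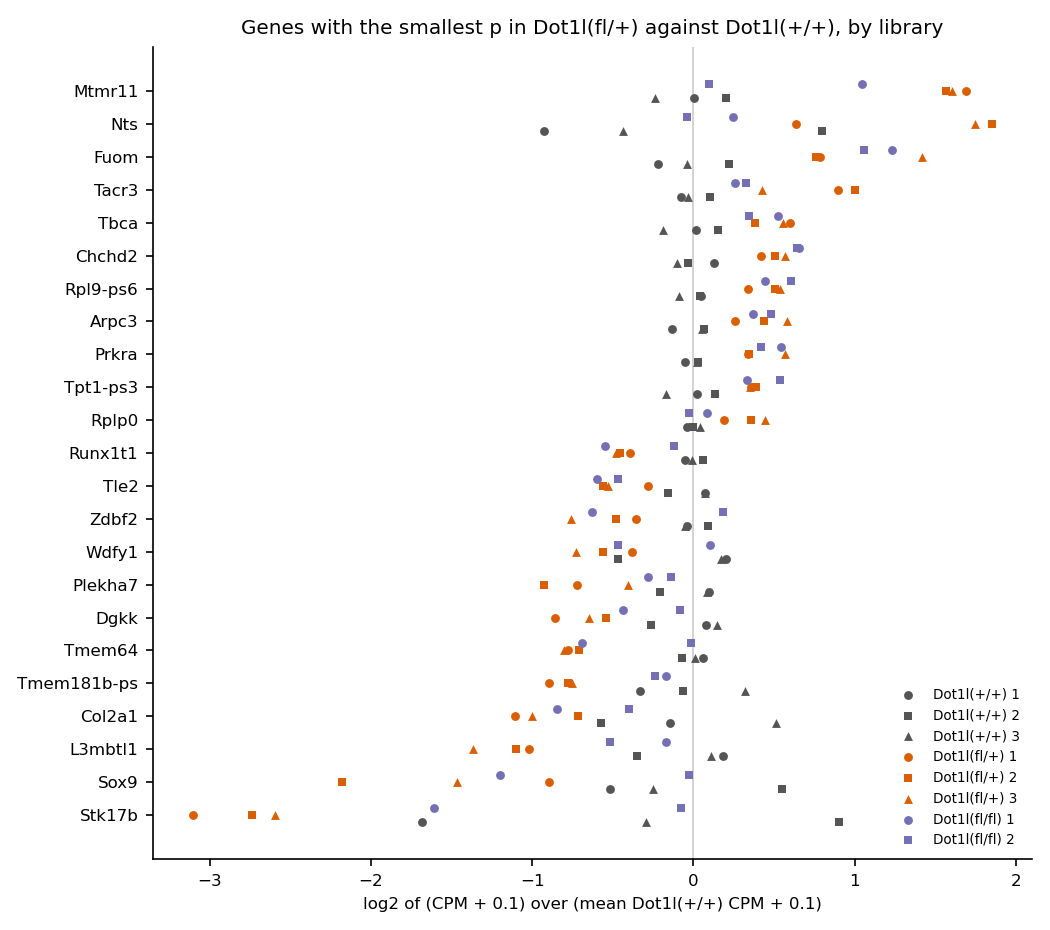
Each point is 1 library, and the horizontal axis is the log2 ratio of its CPM plus 0.1 to the mean CPM of Dot1l(+/+) plus 0.1, for 23 of the 24 genes with the smallest p in each direction. The Dot1l(fl/+) points lie beyond all Dot1l(+/+) points except for Nts and Wdfy1, and Gsto2 is left out because it had no count in Dot1l(+/+).

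Under 2 other fits some genes passed an adjusted p under 0.05. Without a filter on low counts edgeR on the 8 libraries called 11 of 23694 genes (0.0464%), and DESeq2 on the 6 libraries of the 2 genotypes with a prior on fold changes called 11 of the 5326 genes it gave an adjusted p (0.207%). Together these were 17 genes, and 5 were in both sets: Tbca, Zdbf2, Leng8, Kmt2d and the long noncoding RNA Malat1. Both fits used the same 6 libraries of these genotypes, so the 5 shared genes are not independent calls. All 11 of the DESeq2 set did not overlap between the genotypes, against 5 of the 11 of the unfiltered set. Both sets were picked by small p on these same libraries, so separation follows in part from the choice and is no further support. The DESeq2 set held Tbca, Chchd2, Rplp0, Prkra, Arpc3 and Tpt1-ps3 higher, with DESeq2 adjusted p from 0.0164 to 0.0498. It held Runx1t1, Zdbf2, Malat1, Leng8 and Kmt2d lower. Malat1 read 599, 559 and 472 CPM in Dot1l(+/+) and 461, 331 and 399 in Dot1l(fl/+), and Kmt2d, which methylates H3K4 at enhancers, read 106, 86.2 and 115 against 68.3, 72.5 and 79.4. For both, each heterozygous library was below each control library, with edgeR differences of -0.45 ± 0.13 and -0.48 ± 0.15. Leng8 read 209, 143 and 205 against 141, 119 and 130.1, where Dot1l(+/+) 2 and Dot1l(fl/+) 1 nearly met.

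The unfiltered set added genes that varied within a genotype. Meg3, an imprinted noncoding RNA abundant in neurons, read 3499, 2369 and 3016 CPM in Dot1l(+/+) and 2606, 2102 and 2075 in Dot1l(fl/+), and Miat, another noncoding RNA, read 730.2, 459.9 and 734 against 512, 455 and 457. In both, Dot1l(+/+) 2 fell among the heterozygous libraries. Gm23935, annotated as a miRNA gene with 57 exonic bases, read 18, 73.9 and 6.5 against 97.6, 25.2 and 51.0, so its groups were interleaved. Xist and Kdm5d, which follow the sex of the embryos, made up the rest beside Wdfy1. Xist had the smallest adjusted p of the unfiltered edgeR fit, 1.62e-43, although it varied widely within each genotype. Gm23935 had 1.73e-04 in that fit despite its interleaved groups. The 9 genes of the 17 that were lower had a median exon length of 9293 bases, and the 8 higher had 1843.5. DESeq2 fitted to all 3 genotypes without a prior called 0 genes, with a smallest DESeq2 adjusted p of 0.0636 and 1086 nominal genes.

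The length of a gene's exons went with its difference across the whole transcriptome. When 10533 protein-coding genes above 5 CPM were split into 5 equal groups by exon length, the group with the shortest exons had a median difference of 0.08, and the group with the longest had -0.09. The 3 groups between had medians of 0.03, -0.01 and -0.04, in order of length. In the shortest group 69.2% of genes were higher in Dot1l(fl/+), with 114 nominal genes higher and 16 lower. In the longest group 25.6% were higher, with 7 higher and 187 lower among the nominal ones. Across these genes the difference had a Pearson r of -0.32 and a Spearman rho of -0.35 with log2 exon length, and an r of -0.03 with GC content, as a description over genes that share the same 6 libraries. The libraries did not divide cleanly by genotype on this measure. The median of the shortest group, each gene set against its mean in Dot1l(+/+), was -0.02, 0.10 and -0.08 in the Dot1l(+/+) libraries and 0.06, 0.05 and 0.15 in the Dot1l(fl/+) libraries. That of the longest group was 0.03, -0.11 and 0.07 against -0.05, -0.06 and -0.15. Dot1l(+/+) 2 lay beyond Dot1l(fl/+) 1 and 2 on both, and Dot1l(fl/+) 3 was the farthest of these 6 libraries. Dot1l(fl/fl) 1 lay farther still, at 0.20 and -0.21. Because many gene lists differ in exon length, several medians below are also given from a fit in which every library had an offset modelled on exon length and GC. What sets this relation was not tested.

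**Figure D2:**
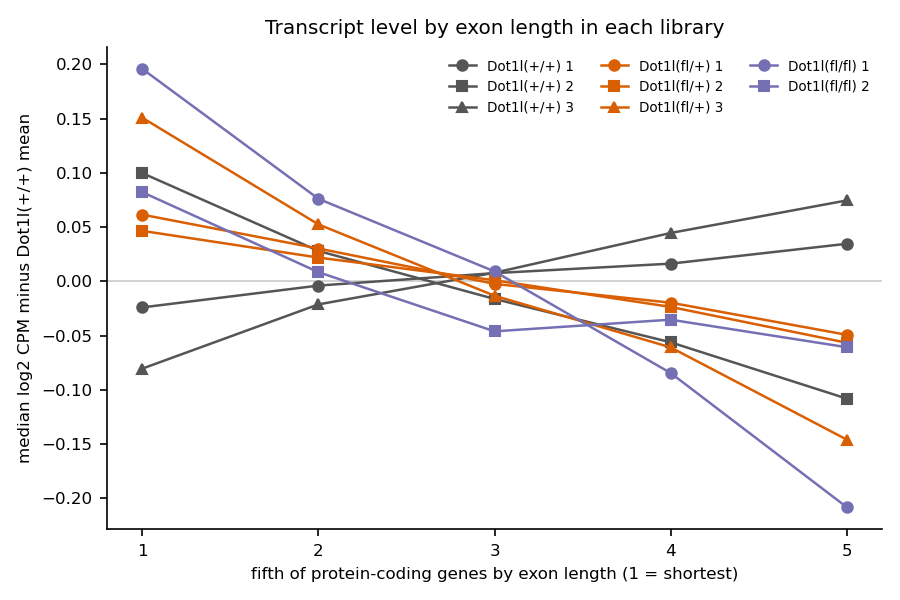
The horizontal axis is the group of exon length, 5 from shortest to longest, for 10533 protein-coding genes above 5 CPM, and the vertical axis is the median log2 ratio to the Dot1l(+/+) mean, with 1 line per library. Lines of Dot1l(+/+) 1 and 3 run upward with length, while those of Dot1l(+/+) 2 and the 3 Dot1l(fl/+) libraries run downward. The Dot1l(fl/fl) lines also end lower than they start.

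Genes of the mitochondrial respiratory chain lay slightly higher in Dot1l(fl/+). Of 78 nuclear subunits 71 were higher, with a median of 0.13, which was 0.08 after the offset, and 5 were nominal and higher, 0 nominal and lower. The nominal and higher members were 6.41% of the list, against 2.16% of all genes. Members that did not overlap and were higher were also 6.41%, near the 5.56% of all genes. In the group of coding genes with the shortest exons, these 2 shares were 5.41% and 10.6%, and 69.2% of genes were higher. The list's median exon length was 1778.5 bases. In complex I, the NADH dehydrogenase, 35 of 37 were higher with a median of 0.12, and in complex II all 4 were, with 0.13. Complex III had 9 of 10 higher (0.13), complex IV, cytochrome oxidase, 10 of 10 (0.16), and complex V, the ATP synthase, 13 of 17 (0.13). The 5 nominal members were Ndufb9 of complex I at 0.31 ± 0.11, Uqcrb of complex III at 0.32 ± 0.15, Cox5a of complex IV at 0.24 ± 0.11, and Atp5c1 and Atp5f1 of complex V at 0.30 ± 0.10 and 0.28 ± 0.10. Atp5c1 read 157, 167 and 148 CPM in Dot1l(+/+) and 202, 177 and 202 in Dot1l(fl/+), and Atp5f1 read 163, 162 and 140 against 176, 191 and 199. Both were apart, by a narrow margin in Dot1l(fl/+) 2 for Atp5c1 and in Dot1l(fl/+) 1 for Atp5f1. The list as a whole was not apart: the median log2 ratio of its members to their Dot1l(+/+) mean was -0.05, 0.17 and -0.11 in the Dot1l(+/+) libraries and 0.09, 0.04 and 0.24 in the Dot1l(fl/+) libraries, so Dot1l(+/+) 2 lay above Dot1l(fl/+) 1 and 2. Without Dot1l(+/+) 2, 75 of the 78 were higher with a median of 0.22, without Dot1l(+/+) 3 it was 57 with 0.07, and without Dot1l(fl/+) 3 it was 66 with 0.07.

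Other genes for mitochondria were read next. Of 76 proteins of the mitochondrial ribosome 63 were higher with a median of 0.16, and 0.13 after the offset. Of these, 8 were nominal and higher, 10.5% of the list, and 0 were nominal and lower, and 16 (21.1%) did not overlap and were higher. Nominal and higher were 2.16% of all genes, and 5.56% did not overlap and were higher. In the group of coding genes with the shortest exons these 2 shares were 5.41% and 10.6%. The list's median exon length was 2213.5 bases. Without Dot1l(+/+) 2, 67 were higher with a median of 0.22, without Dot1l(fl/+) 3, 52 with 0.10, and without Dot1l(+/+) 3, 56 of 75 with 0.08. The list's median log2 ratio overlapped, at 0.09 in Dot1l(+/+) 2 and 0.08 in Dot1l(fl/+) 2. The nominal genes included Mrps24 at 0.44 ± 0.15, Mrpl13 at 0.37 ± 0.14 and Mrpl49 at 0.34 ± 0.14. The large subunit alone had 12 of 47 members that did not overlap and were higher. Among 31 assembly factors of the chain 20 were higher with a median of 0.08, and 7 (22.6%) did not overlap and were higher. Ndufaf5, an assembly factor of complex I, read 23.1, 23.9 and 29.0 CPM against 34.5, 31.4 and 38.7, and Surf1, mutated in Leigh syndrome, read 38.3, 36.5 and 33.2 against 45.3, 45.9 and 44.5. Both were apart and higher, while Cox18 was apart and lower, at 11.6, 13.5 and 11.7 against 8.67, 7.59 and 9.0. Among 52 genes of mitochondrial shape, division and cristae 36 were higher with a median of 0.07, and Immt, which builds cristae junctions, was apart at 0.18 ± 0.09. The 8 genes tested that are encoded by mitochondrial DNA had a median of 0.01, or -0.11 after the offset, with 5 higher and none of them apart. Without Dot1l(+/+) 3 their median was -0.09 and 0 of 8 were higher. It was -0.05 without Dot1l(fl/+) 1, with 1 of 8 higher, and -0.03 without Dot1l(fl/+) 2, with 2 of 8 higher. Without Dot1l(+/+) 2 it was 0.08 with 6 of 7 higher, and without Dot1l(fl/+) 3 it was 0.04 with 6 of 8 higher. The sign of this median was not settled.

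Genes of protein synthesis and turnover also lay on the higher side. Of 78 cytosolic ribosomal proteins 55 were higher (70.5%) with a median of 0.08, or 0.04 after the offset. Nominal genes were 9 higher (11.5%, against 2.16% of all genes) and 1 lower (1.28%, against 2.86%). The list's median exon length was 1754.5 bases. In the group of coding genes with the shortest exons, 69.2% were higher with a median of 0.08, and 5.41% were nominal and higher. Rps24 differed by 0.35 ± 0.12, while Rps19 differed by -0.46 ± 0.18. Without Dot1l(+/+) 2, 65 were higher with a median of 0.19, and without Dot1l(+/+) 3, 43 with 0.04. These genes have many processed copies, so their counts are uncertain in the same way as the pseudogenes above. In the proteasome 29 of 33 subunits were higher with a median of 0.09, or 0.06 after the offset, with Psmb1 at 0.30 ± 0.10 and Psma7 at 0.25 ± 0.11. The proteasome median was 0.06 without Dot1l(+/+) 1 or 3 and 0.16 without Dot1l(+/+) 2, and 22 of the 33 were higher without Dot1l(fl/+) 3. Of 24 chaperones 21 were higher (0.08), of 28 genes of the endoplasmic reticulum stress response 18 (0.05), and of 18 glycolysis genes 13 (0.06). Calr, the endoplasmic reticulum chaperone calreticulin, read 504, 493 and 474 CPM against 530.1, 588 and 564, apart with a difference of 0.19 ± 0.09.

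**Figure D3:**
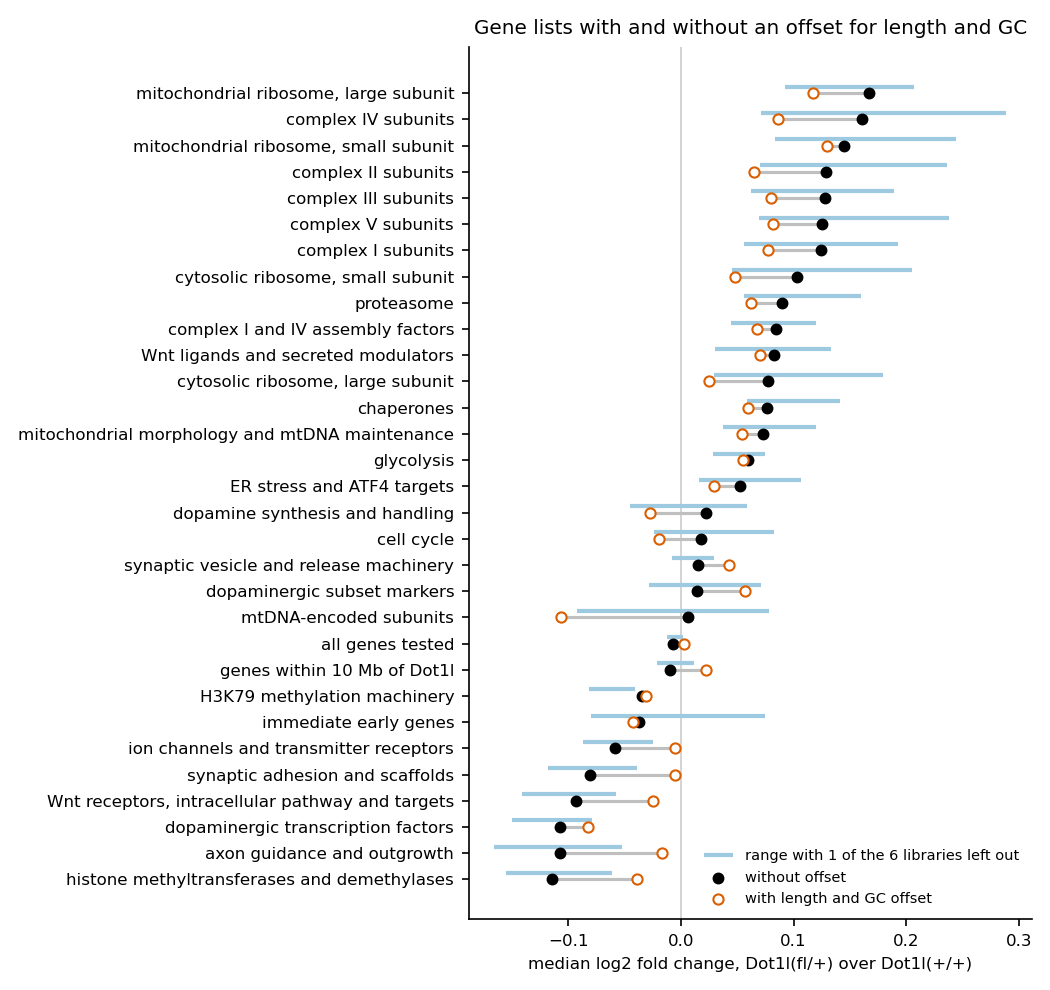
The horizontal axis is the median log2 fold change of each gene list in Dot1l(fl/+) over Dot1l(+/+), with filled points for the edgeR fit, bars for the lowest and highest median when 1 of the 6 libraries was left out, and open points for the fit with the exon length and GC offset. Filled points of mitochondrial, ribosomal and proteasome lists lie right of 0, that of genes encoded by mitochondrial DNA by only 0.01. Those of transcription factor, Wnt receptor and axon guidance lists lie left.

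Genes of the DA neuron identity were read as 3 lists. Among 17 genes of dopamine synthesis, transport and breakdown 9 were higher with a median of 0.02, and none was nominal. That median was -0.03 after the offset (7 of 17 higher), -0.05 without Dot1l(fl/+) 2 (6 of 17) and -0.01 without Dot1l(+/+) 3, so its sign was not settled. Th read 1047, 952 and 975 CPM in Dot1l(+/+) and 941, 965 and 915 in Dot1l(fl/+), with overlap and a difference of -0.08 ± 0.09, whose 95% interval ran from -0.25 to 0.10. The vesicular transporter Slc18a2 differed by -0.15 ± 0.11, the dopamine transporter Slc6a3 by 0.11 ± 0.10, Pitx3 by -0.01 ± 0.10, the retinoic acid enzyme Aldh1a1 by 0.09 ± 0.11 and the potassium channel Kcnj6 by -0.09 ± 0.20, all with overlap. The 22 DA transcription factors leaned the other way: 3 were higher and 19 lower, with a median of -0.11, or -0.08 after the offset. The nominal ones were 5 lower (22.7%, against 2.86% of all genes) and 0 higher. Apart and lower were also 5 (22.7%, against 5.97% of all genes). En2, the engrailed factor of the midbrain, read 445, 421 and 472 against 384, 382 and 358, and Ebf3 read 666, 643 and 709 against 628, 565 and 536. Nfib, of the nuclear factor I family, was apart as well at -0.28 ± 0.10, and Nr4a2, the orphan receptor that specifies DA neurons, at -0.22 ± 0.08. The median log2 ratio of the list was -0.01, -0.04 and 0.07 in the Dot1l(+/+) libraries and -0.10, -0.06 and -0.17 in the Dot1l(fl/+) libraries, which did not overlap, and the summed level was 5998 to 6390 CPM against 5474 to 5889. In bulk RNA fewer cells of a kind and less RNA per cell cannot be told apart. Among 29 markers of DA neuron subsets 16 were higher with a median of 0.01. Tacr3, Nts and the calcium-binding Calb2 (0.32 ± 0.12) were the 3 nominal ones, all higher (10.3%, against 2.16% of all genes).

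Among the Wnt ligands the study followed, both were apart and higher, as were 5.56% of all genes, and neither was nominal. Wnt7a read 15.5, 12.6 and 12.7 CPM in Dot1l(+/+) and 17.6, 18 and 18.1 in Dot1l(fl/+), a difference of 0.40 ± 0.21. Wnt7b read 118, 98.3 and 112 against 138, 118 and 125, where the lowest heterozygous library lay just above the highest control library, a difference of 0.21 ± 0.11. Of 26 Wnt ligands and secreted modulators tested 15 were higher with a median of 0.08, and 1 was nominal, Wnt11, at 1.24, 0 and 0.0925 against 1.92, 1.58 and 1.44. Rspo2, a Wnt agonist, overlapped at 0.07 ± 0.31. Of 46 Wnt receptors, signal transducers and targets 12 were higher with a median of -0.09, which became -0.03 after the offset. Fzd3, a Frizzled receptor needed for axon tracts, differed by -0.49 ± 0.16 and Gsk3b, the kinase that marks beta-catenin for breakdown, by -0.23 ± 0.09. Both were nominal and apart. Fzd3 read 54.9, 47.4 and 65.8 against 47.3, 38.0 and 34.7, so its groups were separated by a small gap. The Parkinson's disease genes Pink1 and Park7 and the mitochondrial division genes Fis1 and Dnm1l differed by 0.14 ± 0.11, 0.16 ± 0.09, 0.15 ± 0.11 and 0.03 ± 0.09, and the mitochondrial regulator Ppargc1a by 0.04 ± 0.20. Of these 5 only Park7 was apart, at 122, 129 and 128 against 140.3, 138 and 145, and none of the 5 was nominal.

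Lists of axon guidance, synaptic adhesion, ion channel and histone methylation genes had medians below 0, nearer 0 with the offset. In each of these lists the median log2 ratio by library overlapped between the genotypes, and Dot1l(+/+) 2 lay below Dot1l(fl/+) 1. Of 71 axon guidance genes 10 were higher with a median of -0.11, or -0.02 after the offset. Without Dot1l(+/+) 3, 25 were higher (-0.05), without Dot1l(+/+) 1, 21 (-0.09), and without Dot1l(+/+) 2, 10 (-0.17). The list's median log2 ratio was 0.04, -0.14 and 0.09 in the Dot1l(+/+) libraries and -0.06, -0.10 and -0.14 in the Dot1l(fl/+) libraries. Plxnc1, a semaphorin receptor, differed by -0.29 ± 0.10, Sema5b by -0.31 ± 0.12, and Stmn2, a tubulin-binding protein of growing axons, by 0.14 ± 0.06. Of 63 synaptic adhesion and postsynaptic genes 14 were higher (-0.08, or -0.01 after the offset), with Lrrtm2 at -0.32 ± 0.11 and Shank1 at -0.32 ± 0.12. Of 86 ion channel genes 31 were higher (-0.06, or -0.0048 after the offset), with Scn9a, Grin2b and Cacna1d between -0.38 and -0.21. Of 44 histone methyltransferases and demethylases 10 were higher (-0.11, or -0.04 after the offset). Nominal genes were 7 lower (15.9%, against 2.86% of all genes) and 0 higher. The lower ones included the H3K4 enzyme Kmt2c at -0.41 ± 0.13 and the H3K36 enzyme Ash1l at -0.30 ± 0.12. The list's median exon length was 7778 bases. Among coding genes, 4.08% of the fourth and 8.88% of the longest group by exon length were nominal and lower. Genes of the synaptic vesicle cycle were balanced, with 31 of 55 higher, and held the calcium sensor Syt5 and Rab3b higher and the active zone protein Rims2 lower, at -0.47 ± 0.16. Of 31 immediate early genes 14 were higher and of 33 cell cycle genes 18, with medians of -0.04 and 0.02. No member of any list passed an adjusted p under 0.05 in the edgeR fit with the count filter.

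Transcripts that follow the sex of the pooled embryos differed between libraries of one genotype. Xist, the noncoding RNA that silences one X chromosome in females (chrX:103460366-103483254), read 1167, 416 and 0 CPM in Dot1l(+/+) and 321, 266 and 3.16 in Dot1l(fl/+). Chromosome Y genes summed to 0.532, 66.0 and 166.4 against 102.9, 105.3 and 149.3. The first Dot1l(+/+) library was thus almost free of chromosome Y reads and the last had no Xist, while the other Dot1l(+/+) library and 2 of the Dot1l(fl/+) libraries held both. Kdm5d, a chromosome Y demethylase, read 0, 18.6 and 48.1 against 29.1, 34.8 and 47.3. The groups overlapped for Xist, and its difference of -1.42 ± 1.2 became 0.68 when the summed level of chromosome Y was a covariate. With that covariate edgeR made 0 adjusted calls, and the nominal genes were 391 higher and 378 lower.

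**Figure D4:**
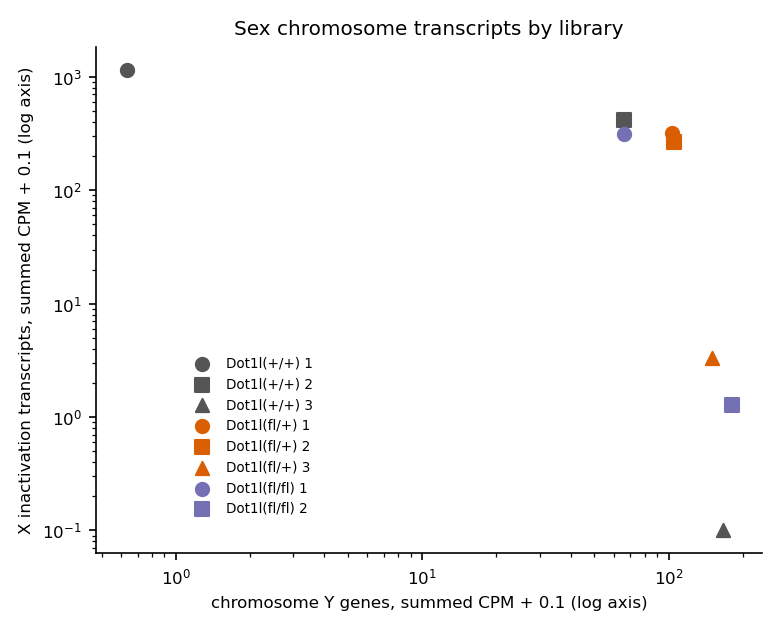
Summed CPM plus 0.1 of chromosome Y genes is on the horizontal axis and that of X inactivation transcripts on the vertical axis, both on log scales, with 1 point per library. Dot1l(+/+) 1 and 3 sit at opposite corners, and Dot1l(+/+) 2 and Dot1l(fl/+) 1 and 2 sit near each other with both signals.

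Summed levels of markers of cells other than DA neurons overlapped between the genotypes. They were 13.7 to 17.9 CPM in Dot1l(+/+) and 11.9 to 19.3 in Dot1l(fl/+) for red blood cells, with Hbb-bh1 at 0, and 9.51 to 17.5 against 8.12 to 23.7 for endothelium, with Emcn and Ly6c1 at 0. Microglia markers summed to 134 to 165 against 125 to 181, oligodendrocyte precursor markers to 36.1 to 50.5 against 39.8 to 46.3, and meningeal markers to 3.00 to 6.43 against 4.55 to 6.07. Of neighbouring neurons, GABAergic markers summed to 221 to 245 against 209 to 254, glutamatergic ones to 180.3 to 220.4 against 200.2 to 226, serotonergic ones to 13.0 to 15.68 against 9.33 to 15.4 and motor neuron ones to 6.06 to 7.03 against 5.85 to 8.87. Noradrenergic markers stayed under 0.5 CPM in every library, with Dbh and Phox2a at 0. The median log2 ratio over the glutamatergic markers did not overlap, unlike their sum, at 0.01, 0.04 and 0.18 in Dot1l(+/+) and -0.69, -0.07 and -0.19 in Dot1l(fl/+). Of the 8 tested 3 were higher, with a median fold change of -0.52 on the log2 scale, and their part in other results was not tested.

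Chromosomal neighbours of Dot1l were read separately. Within 10 Mb of Dot1l on chromosome 10, 122 of 256 genes were higher, with a median of -0.01, and 2 nominal genes were higher and 6 lower, which is 0.781% and 2.34%. Tle2, described above, lies 0.779 Mb away at chr10:81574561-81590845. Cactin, a splicing-associated factor, lies 0.526 Mb away at chr10:81321103-81326242 and read 35.4, 40.3 and 38.7 CPM in Dot1l(+/+) and 27.1, 28.9 and 28.0 in Dot1l(fl/+). It was apart, with a difference of -0.45 ± 0.15. Over the whole of chromosome 10, 383 of 785 genes were higher, with the same median of -0.01.

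The Dot1l(fl/fl) libraries are compared with the same 3 Dot1l(+/+) libraries, so the effects of 1 and of both floxed alleles are set side by side and only their difference was tested. In the test of Dot1l(fl/fl) against Dot1l(fl/+), edgeR called 0 of 17988 genes (0%) after adjustment, where the lowest adjusted p was 0.717, and 723 genes were nominal. Of the 24 leading genes, 3 of the 12 higher and 8 of the 12 lower were nominal in that test, and these genes had been chosen on the Dot1l(fl/+) libraries that enter it. Chchd2 read 85.2 and 84.4 CPM in Dot1l(fl/fl), Tbca 106 and 93.8, and Atp5c1 194 and 204, all above every Dot1l(+/+) library. Rplp0 read 282 and 261 there, and Tacr3 12.6 and 13.2, below each Dot1l(fl/+) library. Tmem64 read 14.8 and 23.8 and Zdbf2 68.3 and 120.1, so Dot1l(fl/fl) 1 lay with or near Dot1l(fl/+) and Dot1l(fl/fl) 2 with Dot1l(+/+). Of the study's genes, Wnt7b read 175 and 146 and Wnt7a 34.7 and 18.4, above every Dot1l(fl/+) library, and Th read 860.3 and 649, below every one. En2, at 327 and 316, lay below every Dot1l(fl/+) library, while Nr4a2, at 524 and 549, lay on either side of Dot1l(fl/+) 3.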

How the data were processed

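RNA of sorted midbrain DA neurons was sequenced from libraries made with a strand-marking kit. The authors deposited raw read counts per Ensembl gene, 1 file per library, mapped to GRCm38.p4 per the labels, and counts of 8 of the 9 labelled libraries were used here. The submitters' processing notes name bcl2fastq 2.17, Trimmomatic 0.30 and DESeq2 1.10.1; the aligner, the counter, its strand setting and its treatment of shared reads are not given in the sources used here. The deposited comparison tables hold fold changes with errors, test statistics and p-values of the authors, which were not used; only their pairing of gene identifiers with symbols was taken, for all 47729 genes.

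Counts were fitted with edgeR 4.0.16 in R 4.3.3 by quasi-likelihood with TMM factors, edgeR's own count filter, genotype as the term and all 8 libraries, so that Dot1l(fl/fl) shared in the estimate of spread. The Benjamini-Hochberg adjustment covered all 17988 genes, with a threshold of 0.05. CPM values use TMM-scaled library sizes. The total counts of the 6 libraries were 26296897 to 43674673, so counting error is small beside the spread between libraries for abundant genes. Groups are called apart, or not overlapping, where the lowest CPM of one exceeded the highest of the other. The list score of a library is the median over members of log2 CPM, with a prior count of 2, minus the mean of the Dot1l(+/+) libraries. Exon lengths and GC content came from GENCODE M21, and the offset used splines with 4 degrees of freedom each. Simulated counts of 17119 genes were also fitted for Dot1l(fl/+) against Dot1l(+/+), with 50 genes changed at each fold. Of these, 10% were recovered at 1.25-fold, 52% at 1.5-fold and 80% at 2-fold. The changed genes lay above 5 CPM and each gene was drawn independently. Shifts that many genes of a library share were left out, so these shares may be too high for the real libraries. Of 16919 unchanged genes 4 were called. These outcomes are not given for each alternative fit, so they do not check the fits that made calls.

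Named genes were Dot1l and the H3K79 list, 15 genes the study assayed or discussed, the 12 higher and 12 lower with the smallest p, up to 15 called by an alternative fit, and up to 3 higher and 3 lower per list. All 17 called genes are named, 2 beyond that rule. Cactin and the libraries' markers were named beside them, Cactin for its position. The members and lists were chosen with earlier results of these data known. Alternatives were other scalings (RLE, upper quartile), other filters (none beyond 1 count, a mean of at least 50 counts), DESeq2 1.42.0 with and without a prior, the 6 libraries alone, a replicate block, the length and GC offset, both together, no mitochondrial chromosome genes, a chromosome Y covariate and leaving out each library. Some members of these lists are not reported here by name.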

Additional observations from a re-analysis of the deposited data

How the results depend on the processing

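Genes past the adjusted threshold stayed at 0 in edgeR with RLE or upper quartile factors, a mean count of at least 50, the 6 libraries alone, the offset, no mitochondrial chromosome genes, the chromosome Y covariate, and without each library in turn, and in DESeq2 with all 3 genotypes. They were 11 without a filter, where genes of few counts entered the fit, and 11 in DESeq2 with a prior on the 2 genotypes. Leaving out 1 library at a time moved the nominal genes between 639 and 1493, the higher ones between 269 and 686 and the lower ones between 308 and 807, with each maximum without Dot1l(+/+) 2. Leaving out each Dot1l(fl/fl) library was chosen after seeing the data, as was leaving out each of the 8 libraries in the test of Dot1l(fl/fl) against Dot1l(fl/+). That last test then called 0 to 3 named genes in edgeR: Th, Btg2 and Aldh1a1 without Dot1l(fl/fl) 1, and 1 gene, Rps19, without Dot1l(fl/fl) 2, where the lone Dot1l(fl/fl) library was assumed to vary like the others. These calls did not appear with both libraries, and the cause was not tested.

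List medians moved by more than the spread between libraries in these cases. The large subunit of the mitochondrial ribosome ran from 0.0928 to 0.207 without 1 library and read 0.0757 in DESeq2 with a prior, where both subunits together read 0.0744. The small subunit ran from 0.0833 to 0.244, mitochondrial morphology from 0.0376 to 0.12, chaperones from 0.0589 to 0.141, endoplasmic reticulum stress from 0.0164 to 0.107, each lowest without Dot1l(+/+) 3 and highest without Dot1l(+/+) 2, and glycolysis from 0.0284 without Dot1l(fl/+) 3 to 0.0746. Wnt receptors and transducers read -0.0251 with the offset and -0.0224 in DESeq2 with a prior, synaptic adhesion -0.0053 and axon guidance -0.0171 with the offset. The prior draws fold changes toward 0 by design, so its medians are not on the scale of the others. DESeq2 on all 3 genotypes without a prior gave 0.171 for the large subunit, 0.168 for both subunits and -0.087 for Wnt receptors. Genes within 10 Mb of Dot1l read 0.022 with the offset and -0.0209 to 0.012 without 1 library. Directions turned for Xist (0.68) and for Pitx3 and Kcnj6 (0.0855 and 0.0313) with the chromosome Y covariate, and for Pitx3 (0.01) with the offset. Without 1 library Pitx3 ran from -0.10 to 0.0574, Aldh1a1 from -0.0036 to 0.22, Kcnj6 from -0.35 to 0.11, Rspo2 from -0.13 to 0.29, Dnm1l from -0.0128 to 0.0522 and Ppargc1a from -0.19 to 0.18. The cause of these moves was not tested.

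Library numbers are shared across genotypes, but deviations from the group means of same-numbered Dot1l(+/+) and Dot1l(fl/+) libraries correlated at 0.05, -0.01 and 0.04 across genes, and at 0.25, -0.06 and 0.15 across abundant genes, so not every pair exceeded 0.1 and the pairing rests on the number alone. With the replicate block edgeR called 0 genes, with a smallest adjusted p of 0.51, and 337 nominal genes were higher and 450 lower. With the block and the offset it called 0, with a smallest edgeR adjusted p of 0.106, and the medians were -0.0256 for Wnt receptors, -0.0024 for synaptic adhesion, -0.0181 for axon guidance and 0.0238 within 10 Mb of Dot1l, with Pitx3 at 0.0131.

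With 3 libraries per genotype and a biological coefficient of variation of 0.342, small differences of single genes were not detectable, and the lists' medians carry no test.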

Other observations

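Kinds of transcript other than coding genes also differed in their balance. Of 1305 processed pseudogenes tested, 58.3% were higher in Dot1l(fl/+), with a median log2 difference of 0.06. Nominal ones were 34 higher (2.61%) and 21 lower (1.61%), against 2.16% and 2.86% of all genes. Unspliced kinds lay the other way. The 60 sense intronic transcripts had a median of -0.40, with 26.7% higher, and the 471 transcripts marked TEC, which await experimental support, had a median of -0.31 with 38.2% higher. Of the TEC transcripts 3.18% were nominal and lower and 5.73% apart and lower, near the 2.86% and 5.97% of all genes. For sense intronic transcripts these shares were 5% and 15%. Long intergenic noncoding RNAs were balanced, with 50.4% of 452 higher, and small nucleolar RNAs had a median of 0.00 over 80 genes. Median values of the sense intronic transcripts by library were 0.07, -0.10 and 0.07 in Dot1l(+/+) and -0.43, -0.57 and -0.11 in Dot1l(fl/+), so the genotypes did not overlap, with Dot1l(+/+) 2 and Dot1l(fl/+) 3 nearly meeting.

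Within 1 Mb of Dot1l, a window chosen after values were seen, 42 of 109 genes were higher, with a median of -0.03, and 0 nominal genes were higher and 3 lower. The 3 nominal genes were 2.75% of the window, against 2.86% lower among all genes. In that window 3 genes were apart and higher (2.75%) and 9 were apart and lower (8.26%), against 5.56% and 5.97% of all genes. The list score of these genes was 0.01, 0.01 and -0.01 in Dot1l(+/+) and -0.03, -0.09 and 0.00 in Dot1l(fl/+).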
